A study of Mus musculus with 2 samples.

Results

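The ribosomal protein genes were taken as every gene whose symbol is Rpl or Rps followed by a number, with or without a letter, further digits and a closing l or x, together with Rplp0, Rplp1, Rplp2 and Rpsa. By this rule they were 84 of the 26124 genes counted, 52 coding for proteins of the large and 32 for proteins of the small ribosomal subunit, including genes named as paralogues of another member such as Rpl3l and Rps27l. Single spleen cells had been sequenced from 1 control mouse, called wild-type, and from 1 mouse with sickle cell disease (SCD), the Berkeley model in which red cells sickle and break down. The wild-type mouse was homozygous for Hbatm1Paz, heterozygous for Hbbtm1Tow and hemizygous for Tg(HBA-HBBs)41Paz and served as the non-sickling littermate, whereas the SCD mouse was homozygous for all 3. By their labels both groups thus carried the targeted alpha-globin locus and the human transgene. In erythroid cells Hbb-bs, a mouse beta-globin gene, had 60743 counts per 1000000 UMIs (CPM) in wild-type and 660 CPM in SCD, in the direction of the labels. The mouse alpha-globin gene Hba-a1, in contrast, had 24983 CPM in wild-type and 29522 CPM in SCD and Hba-a2 1093 and 1218 CPM, which goes against a loss of these genes in both, and where these counts come from was not tested. The mice were 12 to 16 weeks old and untreated, red cells had been lysed, and dendritic cells (DCs) had been enriched from both suspensions by negative selection with magnetic beads. With 1 library per genotype no test across animals was possible: the intervals below are exact 95% intervals that cover counting error only, and genotype, animal and library cannot be told apart.

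Ribosomes are built from ribosomal RNA and from ribosomal proteins that assemble into a small subunit, which reads the mRNA, and a large subunit, which joins the amino acids. The mRNAs of ribosomal proteins are among the most abundant of growing cells, and most of them begin with a run of C and T bases, the 5′ terminal oligopyrimidine tract, through which growth signals set their translation. Neutrophils make most of their granule proteins as immature cells and carry little RNA when mature, and maturing red cells keep their ribosomes until the reticulocyte stage.

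To show this start sequence beside the values, the bases around the annotated transcription starts were read from RefSeq for the mouse build GRCm38.p6. A start window was found for 64 of the 84 members, and 20 had none. The first C or T bases from the annotated start onwards formed a run of at least 5 in 16 of 76 member windows (21.1%), against 4.44% of all 32851 windows, and a run of at least 8 in 13.2% against 1.36%. A stretch of C followed by 7 bases of C or T lay within 30 bases of the start in 47.4% of the member windows and 18.2% of all, a definition chosen after the first counts had been seen. In the windows of 300 bases, 250 before and 50 from the start, CCGGAAG stood on either strand in 35.5% of the member windows and 8.86% of all. GGGCGG was found in 60.5% and 35.7%, AAGATGGC in 10.5% and 2.75%, and TATAAA in 9.21% and 13.6%. In 75 windows of mitochondrial ribosomal protein genes the same motifs, in this order, stood in 34.7%, 52%, 16% and 6.67%. The contrast with all windows was thus not particular to the members. These matches describe letters in the annotated windows, and an annotated start can lie some bases from the start used in the cell. The members printed here are described below for their part of the ribosomal protein UMIs along the neutrophil stages or between the libraries, and Rps6 and Rpl35 were added for their long run. Each line gives 10 bases before the start and 16 from it, 5′ to 3′ on the gene's strand, with the run of C and T from the start in capitals.
Rps9 (chr7:3704031-3704056, plus strand): cttgtctctcTTTgtctcgggcctga
Rps27 (chr3:90213633-90213658, minus strand): cgctttcgctCCTTTCCggcggtgac
Rpl37 (chr15:5116603-5116628, plus strand): cctgggcggaagcttatccacaggaa
Rpsa (chr9:120127756-120127781, plus strand): ttatttaaggacgtcatttccggccg
Rpl12 (chr2:32961702-32961727, plus strand): agcaggatccgtcttttcggctttcg
Rps18 (chr17:33955650-33955675, minus strand): cacttccgctCTCTCTTCCacaggag
Rps2 (chr17:24720053-24720078, plus strand): gtcgagatctCgcgcttcttggagca
Rpl3l (chr17:24727816-24727841, plus strand): ttctagctctgtcatttgacctctgg
Rps6 (chr4:86857352-86857377, minus strand): gaagtcgggcCTCTTTTTCgtgacgc
Rpl35 (chr2:39005116-39005141, minus strand): ccgccctttcCTCTTTCTCTCgaacc
Among these 10 genes, Rps27, Rps18, Rps6 and Rpl35 had the run at the annotated start, Rps9 and Rps2 a shorter one, and Rpl37, Rpsa, Rpl12 and Rpl3l none at that position. The genes with a growing part in maturing neutrophils (Rps9, Rps27, Rpl37) and those with a shrinking part (Rpsa, Rpl12, Rps18, Rps2, Rpl35) both included starts with and without a run of at least 5.

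After filtering for 500 to 5000 detected genes and under 15% mitochondrial UMIs, 9745 wild-type cells with 63793391 UMIs (unique molecular identifiers, 1 per captured mRNA) and 11113 SCD cells with 104070901 UMIs were kept, at medians of 4976 and 8195 UMIs per cell. The libraries had 88 cell barcodes in common. The 28 clusters, built without the members, gave cells like neutrophils (4366 wild-type and 7183 SCD), monocytes (966 and 1271), conventional DCs (2925 and 1014), plasmacytoid DCs (pDCs, 812 and 634), red pulp macrophages (283 and 173), erythroid cells (223 and 328) and B cells (20 and 298), called by these names below, and 2 clusters stayed unnamed. In wild-type each class had its own marker list as the highest summed list, whereas in SCD the neutrophil list exceeded the list of the class in all of them except pDCs and the neutrophils themselves. The summed neutrophil list, in CPM, was higher in SCD than in wild-type in every other class: 104501 against 19375 in red pulp macrophages, 42873 against 9392 in erythroid cells, 33283 against 9038 in conventional DCs, 29630 against 926 in B cells, 11645 against 3942 in monocytes and 7049 against 3421 in pDCs. The summed conventional DC list went the other way in several classes, with 14140 CPM in wild-type and 6865 CPM in SCD pDCs, 5794 and 861 in red pulp macrophages, 1410 and 234 in erythroid cells and 1160 and 311 in monocytes. The part of both lists in the results below was not tested, and ratios with the neutrophil list left out of the denominator are given in the closing section.

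Across all kept cells, ribosomal protein genes took up 16.6% of the wild-type UMIs and 12.0% of the SCD UMIs, a ratio of 0.721. Erythroid cells had the highest share with 27.5% in wild-type and 26.4% in SCD, from a pair of clusters that stood far apart. The cluster led by Car1, Car2 and Klf1, a red cell transcription factor, had 33.5% and 30.6% (163 and 249 cells), and the one led by globin genes had 6.64% and 9.56% (60 and 79 cells). Conventional DCs, which present antigen, had 21.3% and 23.6%. The interferon-producing pDCs had 20.8% and 21.5%. These classes overlapped cell by cell: the middle 50% of wild-type cells lay between 17.1% and 24.4% in conventional DCs and between 18.8% and 22.9% in pDCs. B cells had 19.8% and 20.7%, the former from 20 cells. Monocytes had 17.96% in wild-type and 20.8% in SCD. Red pulp macrophages, which clear damaged red cells, had 11.3% and 12.3%. Neutrophils had the lowest share, 4.66% and 5.14%, and their middle 50% of cells (3.67% to 5.96% in wild-type, 2.73% to 4.49% in SCD) did not reach that of any other class. Large-subunit genes held between 50.4% and 56.7% of the ribosomal protein UMIs in these classes, with the lowest value in wild-type neutrophils and the highest in SCD erythroid cells.

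**Figure D1:**
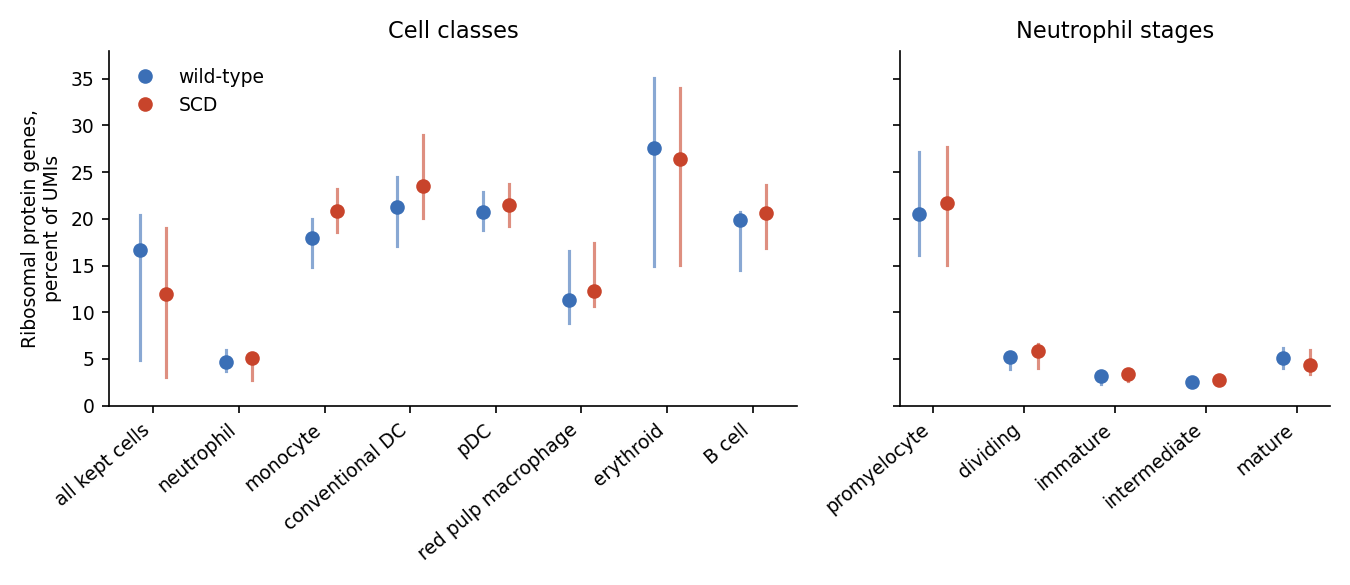
Share of UMIs in ribosomal protein genes (percent, y axis) in each cell class (left) and neutrophil stage (right), for wild-type (blue) and SCD (red); points are pooled over all cells of a group and bars span the middle 50% of its cells. Neutrophils lie near 5% in both libraries, while promyelocytes, with 20.5% and 21.7%, lie near the monocytes and DCs.

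The comparison of the genotypes asked whether the share differed at equal cell type. In 5 of the 6 classes with at least 50 cells in both libraries the pooled share was higher in SCD: by a ratio of 1.16 (1.16 to 1.16) in monocytes, 1.11 (1.10 to 1.11) in conventional DCs, 1.10 (1.10 to 1.10) in neutrophils, 1.09 (1.08 to 1.10) in red pulp macrophages and 1.04 (1.03 to 1.04) in pDCs. Erythroid cells were lower, at 0.960 (0.956 to 0.963). The direction turned in pDCs with members among the clustering genes (0.955) and with total count normalization (0.989), and in red pulp macrophages without an upper limit on genes (0.999). All of these ratios lie nearer to 1 than that of all kept cells. When the SCD level of each class was weighted by the class's part of the wild-type UMIs, the share came to 18.1%, and wild-type levels in the SCD mix gave 10.9%. Neutrophils held 24.97% of the UMIs in wild-type and 58.1% in SCD (44.8% and 64.6% of the cells), and conventional DCs 39.7% and 9.98% (30.02% and 9.12% of the cells). These parts moved together, and the part of each in the lower share of the SCD library was not tested. At an equal mix of clusters and neutrophil sub-clusters the ratio of the whole library was 1.05.

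The neutrophil ratio depended on how cells were averaged. The mean of each cell's share was 4.96% in wild-type and 4.202% in SCD, a ratio of 0.848 in the opposite direction to the pooled UMIs, and cells of 2000 to 8000 UMIs gave 0.689. SCD neutrophils with 16000 to 64000 UMIs had a share of 9.09%, against 2.90% in those with 4000 to 8000. Sub-cluster by sub-cluster, the SCD share was higher in 11 of the 12 neutrophil sub-clusters that held at least 20 cells of both libraries, with ratios from 0.914 to 1.15, and the SCD levels in the wild-type mix of sub-clusters gave 1.09. The same weighting gave 1.09 in monocytes, where 2 of 3 clusters were higher, 1.04 in conventional DCs (4 of 6) and 1.03 in pDCs (1 of 2). For the erythroid class it gave 0.942, from 2 clusters with ratios of 0.914 and 1.44. The erythroid direction turned under several settings of the cell filter, with 1.46 when cells of 30% or more ribosomal protein UMIs were left out and 1.80 without an upper limit on genes.

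**Figure D2:**
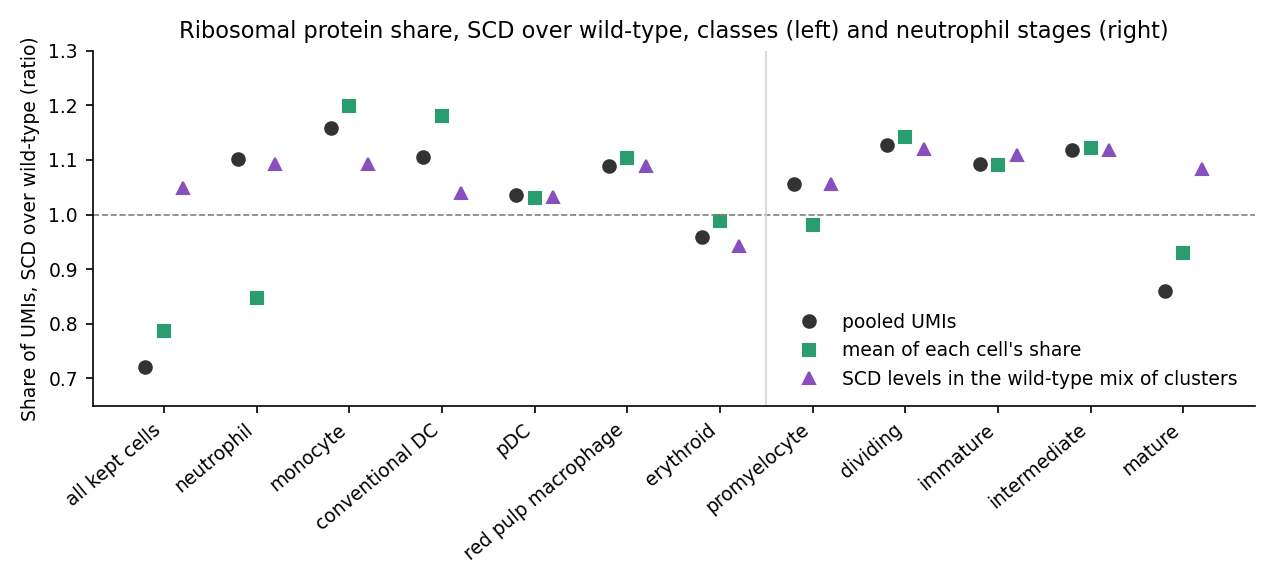
Ratio of the ribosomal protein share, SCD over wild-type (y axis), from pooled UMIs (circles), from the mean of each cell's share (squares) and with SCD levels weighted by the wild-type mix of clusters (triangles); the dashed line marks equal shares. The neutrophil ratio is 1.10 pooled and 0.848 by cell means, and that of mature neutrophils is 0.860 pooled and 1.08 in the wild-type mix.

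The study's methods set a limit of 30% on the ribosomal share of a cell, which was not applied here because it cuts on the measured quantity. At or above it were 318 wild-type cells (3.26%, 2.92% to 3.64%) and 477 SCD cells (4.29%, 3.92% to 4.69%). Of the erythroid cells they were 59.6% in wild-type and 54.6% in SCD. In conventional DCs they were 5.88% and 20.8%. Of these, 90 of 172 wild-type and 155 of 211 SCD cells lay in the cluster with Xcr1 and Clec9a, where the portions were 34.9% and 42.5%, and this cluster held 258 of 2925 wild-type and 365 of 1014 SCD conventional DCs. Among neutrophils they were 1 wild-type and 22 SCD cells, all of them promyelocytes.

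Within neutrophils the share of ribosomal protein genes followed the stages, which were read from the relative level of stage marker lists in 13 sub-clusters. Promyelocytes, the earliest stage with primary granule genes such as Elane and Mpo, had 20.5% in wild-type (9 cells only) and 21.7% in SCD (143 cells). Dividing neutrophils had 5.17% and 5.83%, from 77 and 776 cells. Immature neutrophils, which express the secondary granule genes Camp, Ltf and Ngp, had 3.14% and 3.43%. The intermediate stage was the lowest, with 2.49% and 2.78%. Mature neutrophils, marked by Cxcr2 and Il1b, had 5.10% in wild-type and 4.38% in SCD, above the immature stage in both libraries, by ratios of 1.62 and 1.28. Both libraries had the same order of promyelocyte over dividing over immature over intermediate.

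At equal stage the SCD share was higher in promyelocytes (ratio 1.06, but 0.980 by the mean of each cell's share), dividing (1.13), immature (1.09) and intermediate (1.12) neutrophils and lower in mature ones (0.860, 0.855 to 0.864). The mature stage consisted of 5 sub-clusters that the libraries filled differently. The SCD share was higher in 4 of the 5 and lower in the one that held 1139 of the 1646 SCD and 126 of the 3731 wild-type cells (3.903% against 4.27%), and in the wild-type mix of these sub-clusters the mature ratio was 1.08. When neutrophils were instead split into 4 ranges of the part of immature markers among their stage-marker UMIs, the range nearest to mature held 5.11% in wild-type and 4.69% in SCD, and the range nearest to immature, which includes dividing cells and promyelocytes, 4.22% and 5.43%. On that split the mature cells were thus above the immature ones in wild-type and below them in SCD. The summed neutrophil markers took 473560 CPM in wild-type immature and 174166 CPM in wild-type mature cells, and with the stage-list genes left out of the denominator the ratio of mature over immature was 1.46 in wild-type and 1.16 in SCD.

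Turning to single members, the 5 with the most UMIs in wild-type were genes of the small subunit. Rps29 had 4674 CPM in wild-type and 3105 CPM in SCD. Rps9 had 4250 and 3071 CPM. Rps27a, which codes for a fusion of ubiquitin and a ribosomal protein, had 4203 and 3143 CPM. These are counts of 3′ ends and not levels per length. Rps24 followed with 4147 and 2789 CPM and Rps12 with 3404 and 2811 CPM. Each was lower in the SCD library, as were 79 of the 81 members that passed the expression filter of 50 CPM and 20 UMIs in 1 library. Past 1.5-fold, none was higher and 16 were lower over all kept cells, where 6.51% of all expressed genes were higher and 32.1% lower. The median log2 ratio (SCD over wild-type, 5 CPM added) was -0.46 for the members and -0.36 for all genes. Rpl10l, a copy of Rpl10 known from testis, was all but absent, with at most 2 UMIs in any class.

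Many members share sequence with other annotated genes, whether or not these were counted here, and how their reads were assigned was not examined. In the last 300 bases of their transcripts, 73 of the 84 members share at least 1 stretch of 60 bases with another gene, mostly pseudogenes, and 40 share at least 50% of such stretches. No member shares one with another member. Among the genes named below, Rpl12, Rpl14, Rpl37, Rps20 and Rpl3l share none, Rps9 shares 12.0%, Rpsa 36.5%, Rps27 56.3%, Rps18 61.8%, Rps2 68.8%, Rpl3 72.4% and Rps27a 86.3%.

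To compare the makeup of the ribosomal protein UMIs between cell types, each member was expressed as a part per 1000 ribosomal protein UMIs of the class, a quantity that does not move with the total share. Of the members, 81 had at least 20 UMIs in each of the 6 classes, and their highest part lay in erythroid cells for 27, in neutrophils for 16, in pDCs for 12, in red pulp macrophages for 11, in conventional DCs for 9 and in monocytes for 6. Wild-type chose the 8 members with the widest range, and SCD was the library that did not choose them. The highest class was the same in both libraries for 56 members and the lowest for 58. The median range, as log2 of the highest over the lowest part, was 0.77 in wild-type and 0.44 in SCD.

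Rps9, which lies near the mRNA entry of the small subunit, had the widest range, with 67.1 per 1000 in wild-type neutrophils and 14.6 in erythroid cells. In SCD it had 38.2 and 13.5. Rps27, a zinc-binding protein of the small subunit, had 32.5 and 7.60 per 1000 in the same classes of wild-type, and 15.5 and 7.78 in SCD. Both genes were highest in neutrophils and lowest in erythroid cells of either library, by a smaller margin in SCD. Rpl31 stood apart by its level in pDCs, with 14.3 per 1000 against 3.59 in conventional DCs in wild-type. In SCD the values were 14.0 and 4.47. In CPM, Rpl31 had 2981 in wild-type and 3004 in SCD pDCs and between 226 and 1918 in the other 5 classes. The remaining genes of the list were low in wild-type neutrophils. Rpl12, a protein at the base of the large subunit's stalk, had 13.4 per 1000 in erythroid cells and 3.38 in neutrophils, and 13.9 and 7.28 in SCD. Rps2, a neighbour of Rps9 at the mRNA entry, had 16.2 in erythroid cells and 4.46 in neutrophils, and 10.5 and 4.51 in SCD. Rpl14 had 10.4 and 3.12, and 11.0 and 4.72 in SCD. Rpl10a had 10.1 and 2.58 and Rpl3, a core protein near the peptidyl transferase center, 8.19 in pDCs and 2.26 in neutrophils. In SCD, Rpl10a had 8.94 and 4.95 in those classes and Rpl3 8.33 and 4.39.

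Within neutrophils the parts of Rps9 and Rps27 differed more along the stages than between the libraries at equal stage. Rps9 had parts of 14.9, 29.3, 50.4, 77.6 and 83.6 per 1000 in wild-type promyelocytes, dividing, immature, intermediate and mature cells. In SCD the same stages had 15.1, 28.2, 49.3, 73.0 and 84.8 per 1000. Rps9 was thus higher at each step in both libraries, and its values in the libraries lay within 5 per 1000 of each other at every stage. Rps27 had the same order, with 6.42, 11.4, 19.3, 31.7 and 42.8 per 1000 in wild-type and 7.49, 11.4, 19.2, 28.3 and 34.8 in SCD. Rps27a went from 29.7 in promyelocytes to 81.1 in the intermediate stage and 55.9 in mature cells of wild-type, and from 27.9 to 68.5 and 54.8 in SCD. Rpl37, a zinc-binding protein of the large subunit, went from 14.0 to 43.1 and 36.1, and in SCD from 12.8 to 43.3 and 40.7. Rps9, Rps27 and Rps27a together held 51.0 per 1000 ribosomal protein UMIs in promyelocytes and 182 in mature neutrophils of wild-type, and 50.4 and 174 in SCD.

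In the opposite direction, Rpsa, the protein also known as the laminin receptor, had 20.6, 18.8, 9.14, 2.50 and 3.91 per 1000 along the wild-type stages and 21.1, 20.5, 10.9, 6.59 and 5.78 in SCD. Rpl12 went from 12.6 in promyelocytes to 2.19 in mature cells, and from 13.6 to 4.18 in SCD. Rps18, of the small subunit's head, went from 12.6 to 2.53, and from 13.1 to 4.02 in SCD. Each was lower in mature cells than in promyelocytes by a factor of 3 or more in both libraries. Rps20 went from 21.3 to 4.83 in wild-type and in SCD from 19.6 to 7.10. At least 20 UMIs in every stage of both libraries were counted for 74 members. Of these, 25 had a higher and 44 a lower part in mature cells than in promyelocytes in both, and 5 went opposite ways. The parts of a stage add up to 1000, so the larger parts of Rps9, Rps27 and Rps27a lower those of the other members. The counts of higher and lower members thus depend on each other. How many of the 44 were lower for this reason alone was not tested. At least 2-fold higher in both libraries were only Rps9, Rps27 and Rpl37. At least 2-fold lower in both were 12, among them Rpl3, Rpl12, Rpl32, Rpl35, Rps2, Rps4x, Rps18, Rps19, Rps20 and Rpsa. Among the members higher at each of the steps in both libraries were Rps9, Rps10, Rps27 and Rpl17, and lower at each step were Rps4x, Rps15a, Rps20 and Rpl13. Rps10, Rps15a, Rpl13, Rpl17, Rpl32, Rpl35 and Rpl37 were picked after their stage values had been seen, and the wild-type promyelocyte values rest on 9 cells.

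**Figure D3:**
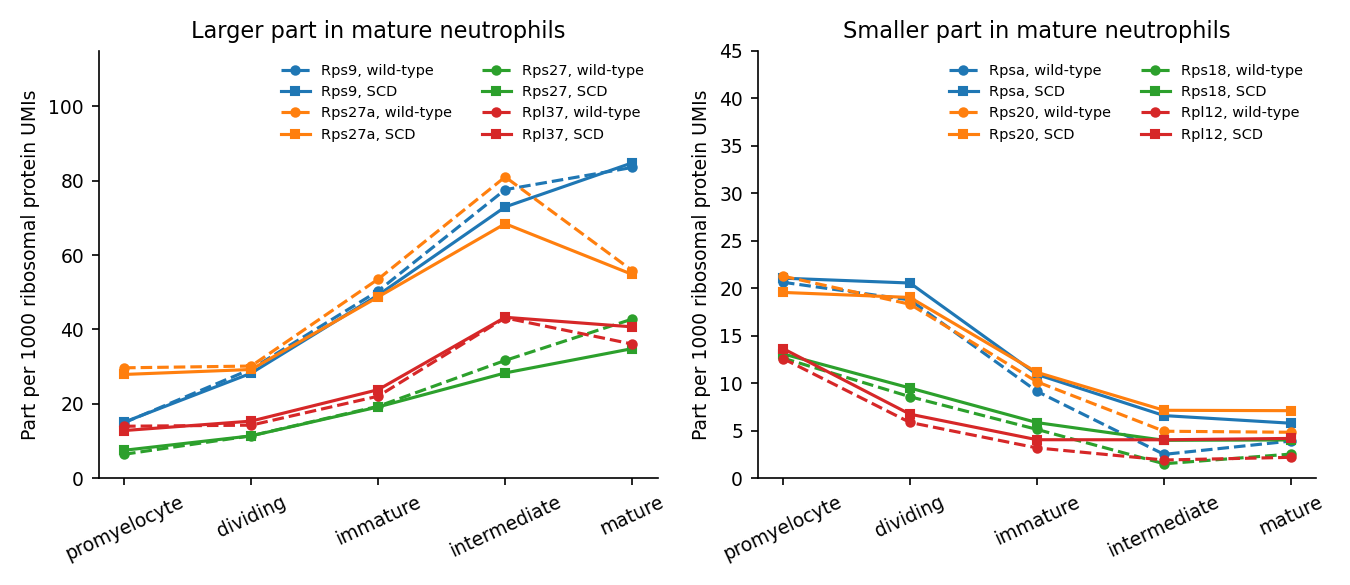
Part per 1000 ribosomal protein UMIs (y axis) of single members along the neutrophil stages (x axis), wild-type dashed with circles and SCD solid with squares; left, members with a larger part in mature cells, and right, with a smaller part. Rps9 goes from 14.9 to 83.6 in wild-type and from 15.1 to 84.8 in SCD, and Rpsa from 20.6 to 3.91 and from 21.1 to 5.78.

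Next, single members were compared between SCD and wild-type within each class. In neutrophils, 79 of the 84 members passed the filter, 22 were at least 1.5-fold higher and 2 at least 1.5-fold lower in SCD, where 8.27% of all expressed genes were higher and 38% lower. The median log2 ratio was 0.26 for the members and -0.38 for all genes. Rpl12 was the highest, with 158 CPM in wild-type and 374 CPM in SCD (log2 ratio 1.22). Rpsa had 351 and 802 CPM (1.18) and Rps18 199 and 437 CPM (1.11). The lowest were Rps27 with 1516 and 797 CPM (-0.92), Rps9 with 3129 and 1964 CPM (-0.67) and Rpl30, a small protein of the large subunit, with 753 and 555 CPM (-0.44). Rpl12, Rpsa, Rps18, Rps27 and Rps9 also differed along the stages, so their ratios were read at equal stage. Rps9 lay between -0.20 and 0.12 in each of the 5 stages. Rps27 was at -0.51 in mature cells and between 0.00 and 0.30 in the other stages. Rpl12, in contrast, was higher in SCD with 0.69 in mature, 1.16 in intermediate, 0.45 in immature and 0.37 in dividing cells. Rpsa and Rps18 were at 0.34 and 0.43 in mature cells, and at 1.48 and 1.44 in the intermediate stage with its few wild-type cells.

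Stage by stage, few members passed 1.5-fold. In promyelocytes 1 was higher, Rpl7l1, which passed the filter in SCD alone, and none lower (all genes: 7.11% and 4.99%), in dividing cells none in either direction (0.432% and 1.49%), and in immature cells 1 was higher, Rpl36a, and none lower (0.527% and 0.474%). The intermediate stage had 10 higher and none lower, against 3.23% and 4.21% of all genes, on 118 wild-type cells. Of these, 5 passed the filter in SCD alone and could be called only as higher: Rpl10a (1.496), Rps18 (1.44), Rpl12, Rps27l and Rpl36a. Rpsa (1.48) passed it in both libraries. In mature cells Rpl3 (0.76) and Rpl12 (0.69) were higher and Rps2 (-0.67) lower, against 3.49% and 13.4% of all genes. The median member ratio was 0.17 in dividing, 0.15 in immature, 0.22 in intermediate and -0.18 in mature neutrophils. The medians of all genes were -0.09, -0.06, -0.07 and -0.26 in the same stages.

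In monocytes, 81 members passed, 6 were higher and none lower, against 7.14% and 16.7% of all expressed genes. The median member was at 0.21 and the median gene at -0.10. Rpl12 was again the highest, with 1230 CPM in wild-type and 1949 CPM in SCD (0.66). Rps20, a protein of the small subunit's head, had 2247 and 3527 CPM (0.65) and Rpl22l1, a paralogue of Rpl22, 301 and 473 CPM (0.64). Lowest were Rps27 with 2649 and 2063 CPM (-0.36), Rps29 (-0.16) and Rps14 (-0.10), none of them past 1.5-fold. The libraries filled the monocyte clusters differently: 552 wild-type and 870 SCD cells lay in the one with Fn1 and Vcan, 373 and 51 in the one with Ace and Cd300e, and 41 and 350 in the one with Pclaf and Ccnb2, genes of dividing cells. Read cluster by cluster, a comparison chosen after seeing the data, no member passed in either direction in the Fn1 cluster, where 2.72% of all genes were higher and 7.67% lower. Its median member was at 0.18, with Rpl12 and Rps20 at 0.55 each and Rpl22l1 at 0.49. In the Pclaf cluster only Rpl22l1 (0.63) was higher and none lower (2.14% and 4.07% of all genes). In the Ace cluster none was higher and Rps2, Rpl3l and Rpl7l1 were lower (7.01% and 8.23% of all genes), with a median of 0.02. Rpl3l and Rpl7l1, on 10 and 9 SCD UMIs, passed the filter in wild-type alone and could be called only as lower. Of the 6 calls of the whole class, that of Rpl22l1 was thus the only one also past 1.5-fold in a single cluster.

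No member passed 1.5-fold in either direction in conventional DCs, where 4.35% of all genes were higher and 15.2% lower, or in pDCs, with 4.83% and 3.55%. The medians were 0.15 and 0.07. Conventional DCs had the highest ratios for Rpl28 (2347 and 3489 CPM, 0.57) and Rpl36al (0.55), and pDCs for Rps27l (283 and 402 CPM, 0.50) and Rpl22l1 (0.34). Rps2 was the lowest in both, at -0.48 and -0.54. Rps19 (-0.09) and Rps27 (-0.07) came next in conventional DCs, and Rpl10 (-0.20) and Rps27 (-0.12) in pDCs.

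In red pulp macrophages 5 members were higher and 1 lower (8.41% and 29.3% of all genes), with a median of 0.16. Rps18 had 721 CPM in wild-type and 1302 CPM in SCD (0.85), Rpl36al 0.69 and Rpl15 0.66, whereas Rpl7l1, which passed the filter in wild-type alone and could be called only as lower, was at -0.64 on 37 and 26 UMIs, followed by Rps2 (-0.53) and Rps29 (-0.48). This class had the fewest UMIs per cell and, among the classes other than neutrophils, the largest absolute difference in summed neutrophil markers. In erythroid cells none was higher and only Rps2 was lower, with 4475 and 2766 CPM (-0.69), against 9.73% and 3.47% of all genes. Its median member was at -0.05 and its median gene at 0.17. Rpl36al (0.37), Rpl7l1 (0.30) and Rplp0 (0.21) were the highest there, and Rps4x and Rpl10a followed Rps2 at -0.24 each. In the Klf1 cluster alone Rps2 was again the only member called, at -0.77 (7.98% of all genes higher and 4.9% lower). In the globin-led cluster Rps2 was at 0.28, and 35 of 80 members were higher and none lower, where 58% of all genes were higher and 6.11% lower and the medians were 0.56 for the members and 0.71 for all genes.

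**Figure D4:**
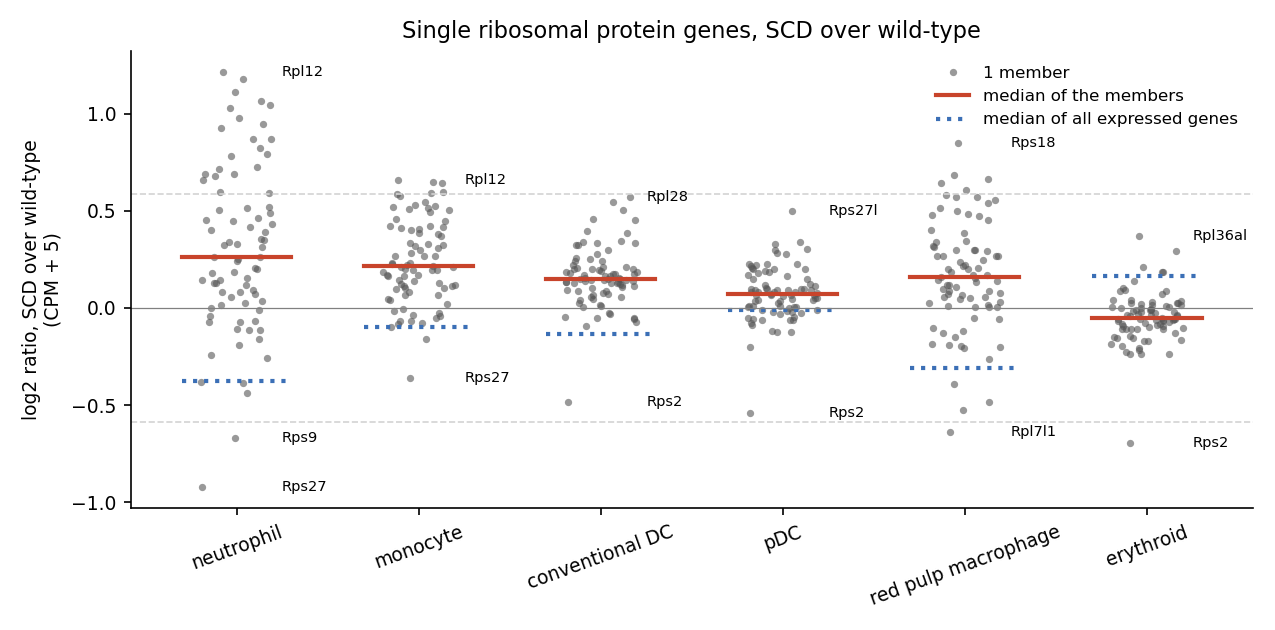
log2 ratio of SCD over wild-type (CPM with 5 added, y axis) of each expressed ribosomal protein gene (grey points) in 6 cell classes; red lines are the members' medians, blue dotted lines those of all expressed genes, and dashed lines mark 1.5-fold. Neutrophils have the widest spread, from -0.92 (Rps27) to 1.22 (Rpl12), and Rps2 is the lowest member in conventional DCs, pDCs and erythroid cells.

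Scaling by the median gene instead of all UMIs moved the median of all genes by 0.38 in neutrophils, 0.31 in red pulp macrophages, 0.14 in conventional DCs, 0.10 in monocytes, 0.01 in pDCs and -0.17 in erythroid cells. On that scale 45 members were higher in neutrophils and none lower, against 21.2% and 20.9% of all genes, so that Rps27 and Rps9 no longer passed. In red pulp macrophages 30 members were higher (17.6% of all genes) and none lower (13%). Monocytes had 15 higher (10.4%) and none lower (12.6%), conventional DCs 5 higher (6.61%) and none lower (10.5%), and pDCs none in either direction (4.97% and 3.43%). In erythroid cells none was higher (5.61%) and 1 lower (5.4%). Past 2-fold on the scale of all UMIs, 6 members were higher and none lower in neutrophils, against 1.85% and 19.3% of all genes. No member passed 2-fold in the other classes, where the shares of all genes that were higher and lower were 3.21% and 6.07% in monocytes, 1.94% and 5.18% in conventional DCs, 2.23% and 0.726% in pDCs, 4.34% and 9.55% in red pulp macrophages and 2.58% and 1.17% in erythroid cells. A measure free of this choice is the distance from the median member. Of 79 members expressed in all 6 classes, 12 lay above the median member in every class and 8 below it, and none was past 1.5-fold from it in all of them. The same count was not made over all expressed genes, so these numbers are descriptions. Rps2 lay below it by between 0.11 and 0.69. Rpl30 was below by 0.11 to 0.70 and Rps9 by 0.08 to 0.93. The largest distances of Rpl30 and Rps9 were in neutrophils, pooled over stages that the libraries filled differently, and the ratios of Rps9 at equal stage are given above. Above it in every class were Rplp0, by 0.19 to 0.48, Rpl36al, by 0.11 to 0.68, and Rps27l, by 0.24 to 0.43.

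Members with a known special role were also read in each class. Rplp0, Rplp1 and Rplp2 form the stalk that recruits elongation factors. Rplp0 was higher in SCD at each of the 6 classes, from 353 to 567 CPM in neutrophils, from 2146 to 3064 in monocytes and from 3863 to 4473 in erythroid cells. Rplp1, with 442 and 502 CPM in neutrophils and 2021 and 3047 in monocytes, was lower in red pulp macrophages (3178 and 2794). Rplp2 had log2 ratios between -0.07 and 0.21 in the 6 classes. The stalk genes thus did not share 1 direction.

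Rpl5 and Rpl11, which bind and inhibit Mdm2 when ribosome assembly fails, had log2 ratios between -0.26 and 0.34 and between -0.06 and 0.24. Rps6, the substrate of S6 kinase, lay between -0.11 and 0.32. Rps19 and Rps26 are mutated in Diamond-Blackfan anemia, in which red cell precursors fail. In erythroid cells their levels were 3712 and 3464 CPM and 5095 and 4967 CPM in wild-type and SCD, with log2 ratios of -0.10 and -0.04. In neutrophils Rps19 had 272 and 503 CPM, a log2 ratio of 0.87, and it belongs to the genes whose part was lower in mature cells. None of these 5 genes passed 1.5-fold in a class other than neutrophils and, for Rps26, monocytes (2181 and 3281 CPM, 0.59, and 0.47 in the Fn1 cluster alone).

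Paralogues were compared as the percentage that one gene holds of the UMIs of its pair. Rpl3l, the form of Rpl3 known from skeletal and heart muscle, was below the expression filter in every class but was counted in mature neutrophils, where Rpl3 was low. It held 33.3% of the pair's UMIs in wild-type mature cells (30.3% to 36.3%, 323 of Rpl3l and 648 of Rpl3) and 23.6% in SCD (20.7% to 26.8%, 179 and 578). In immature cells it held 8% (5.38% to 11.4%) and 10.1% (9.04% to 11.2%), in dividing cells 0.235% and 0.266%, and in promyelocytes 0% in wild-type, where none against 249 UMIs of Rpl3 allows up to 1.47%, and 0.0518% in SCD. Its own level was 35.7 CPM (31.9 to 39.8) in mature wild-type and 38.5 CPM (33.1 to 44.6) in mature SCD cells, against 6.41 and 9.60 CPM in immature cells. Rpl3 in the same stages had 71.6 and 124 CPM in mature and 73.7 and 85.5 CPM in immature cells. The percentage of the pair thus differed between the libraries in mature cells with the level of Rpl3, while the intervals of Rpl3l overlapped.

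Free RNA in the droplets can place UMIs in cells that do not express a gene, so Rpl3l was also read in the other classes. A UMI of Rpl3l was present in 6.995% of wild-type and 9.11% of SCD mature neutrophils, at medians of 2327 and 2626.5 UMIs per cell. In erythroid cells it was 0.897% and 1.22%, at the higher medians of 7584 and 5289, and in conventional DCs 1.44% and 1.87%. Wild-type monocytes, pDCs and the monocyte cluster with Ace and Cd300e had higher percentages than the mature neutrophils, whereas SCD monocytes had a lower one. Monocytes had 10.8% and 4.80% of cells with a UMI, at medians of 9291.5 and 13287 UMIs, and pDCs 9.24% and 13.4%, at 11206 and 9186. In the monocyte cluster with Ace and Cd300e it was 22.0% and 19.6%. These deeper classes are given side by side with the neutrophils, without thinning to an equal depth. Outside neutrophils the highest level was in the monocyte cluster with Ace and Cd300e, with 54.9 CPM (45.8 to 65.1) in wild-type and 30.8 CPM (14.8 to 56.7) in SCD. The class of pDCs had 9.68 and 16.7 CPM, and up to 29.0 CPM in 1 of its SCD clusters. Each of the 5 mature sub-clusters had between 29.1 and 53.8 CPM in wild-type and between 31.8 and 74.9 CPM in SCD. The annotated start of Rpl3l, printed above, had no run of C and T, and its transcript end shares no stretch of 60 bases with another gene, whereas Rpl3 shares 72.4% of such stretches, all with pseudogenes. Whether reads of Rpl3 were left uncounted for this, which bears on the percentage of the pair, was not tested.

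Rps27l, a paralogue of Rps27 induced by p53, held 28.6% of its pair in wild-type and 31.7% in SCD erythroid cells, 23.7% in promyelocytes of either library and 3.87% and 5.40% in mature neutrophils. In neutrophils as a whole, which the libraries fill with different stages, it held 5.55% and 14.0%, against 9.74% and 11.5% in immature cells alone. Its part was higher in SCD in monocytes (10.7% and 18.5%), conventional DCs (7.43% and 10.4%) and pDCs (7.71% and 11.4%) as well. These values rest on whole classes, whose clusters the libraries filled differently. In monocytes Rps27l had 319 and 468 CPM and Rps27 2649 and 2063 CPM. Rpl22l1 held 31.1% and 32.5% of its pair in erythroid cells, 23.6% and 32.2% in neutrophils and 16.5% and 16.6% in conventional DCs. It was highest in dividing wild-type neutrophils (39.7%, 36.3% to 43.2%) and in SCD promyelocytes (36.5%, 35.5% to 37.5%). At equal stage the direction was not shared, with 39.7% and 35.0% in dividing, 25.9% and 26.7% in immature and 16.7% and 22.1% in mature neutrophils of wild-type and SCD, so that the neutrophil values above hold for each library's own mix of stages.

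**Figure D5:**
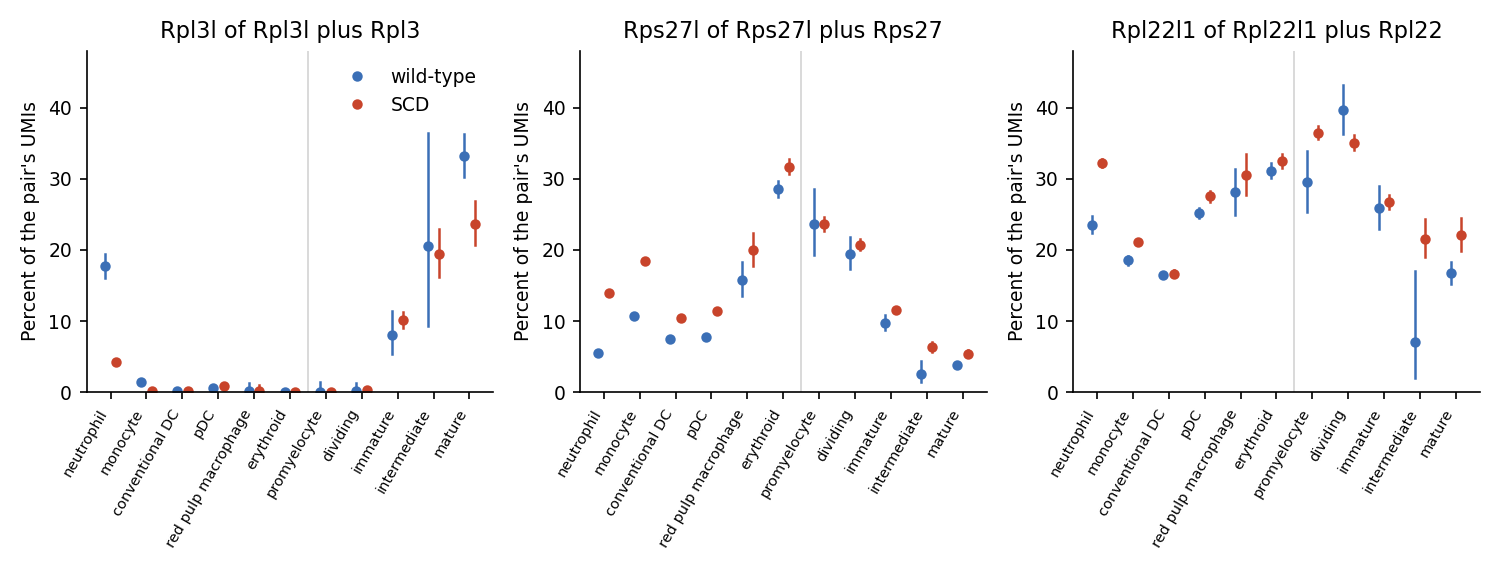
Percentage of a pair's UMIs (y axis) held by Rpl3l, Rps27l and Rpl22l1 in each class and, right of the grey line, each neutrophil stage, for wild-type (blue) and SCD (red), with exact 95% counting intervals as bars. Rpl3l reaches 33.3% and 23.6% in mature neutrophils and 1.42% or less in the other classes, whereas Rps27l is highest in erythroid cells with 28.6% and 31.7%.

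Of the other pairs, Rpl36al held between 23.4% and 38.7% of its pair with Rpl36a over the 6 classes, Rpl7l1 between 2.52% and 7.16% with Rpl7, and Rpl39l, known from testis, at most 0.541% with Rpl39. Its highest value in a stage was 0.888% in SCD immature neutrophils.

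Other genes of ribosome production were counted from 4 lists. Of 45 ribosome biogenesis genes, which build the subunits in the nucleolus, 37 were expressed in erythroid cells and 4 in neutrophils, with summed levels of 10721 and 12962 CPM and of 673 and 785 CPM in wild-type and SCD. Past 1.5-fold, 1 was higher and none lower in both classes, where 9.73% of all genes were higher and 3.47% lower in erythroid cells, and 8.27% and 38% in neutrophils. Of 19 other transcripts known for an oligopyrimidine tract, such as elongation factors, 16 passed the filter in neutrophils, with 2 higher and 1 lower. All 19 passed in monocytes, with 2 higher and none lower. Their medians were 0.13 and 0.14, against -0.38 and -0.10 for all genes. Summed levels in wild-type and SCD were 9756 and 8102 CPM in neutrophils and 27133 and 27881 CPM in monocytes. At equal stage the median was 0.12 in immature and -0.11 in mature neutrophils, against -0.06 and -0.26 for all genes. The summed levels there were 5754 and 6371 CPM in immature and 12039 and 9987 CPM in mature cells. Mitochondrial ribosomal proteins, which serve the organelle's own ribosomes, had a median of 0.39 in monocytes with 7 of 41 expressed genes higher and none lower, against 0.21 for the cytoplasmic members and -0.10 for all genes, of which 7.14% were higher and 16.7% lower. These monocyte values rest on the whole class, with its unlike mix of clusters. In erythroid cells the median was 0.24, with 2 of 69 higher and none lower, against 0.17 for all genes. Regulators such as Myc and Mtor had 1 higher and 2 lower of 6 expressed in neutrophils and none of 8 in either direction in monocytes. The neutrophil counts of these lists rest on the class pooled over stages that the libraries filled differently.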

How the data were processed

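The 10x Genomics 3′ libraries had been aligned and counted by the authors with Cell Ranger 4.0.0 against GRCm38.p6 (versions from the submitters' processing notes), and what they deposited is a matrix of raw UMI counts, not normalized. Strand handling at counting is not given in the sources used here. Cells with 500 to 5000 detected genes and under 15% mitochondrial UMIs were kept, without the ribosomal limit of the study's methods. Genes seen in at least 20 cells, without the members, were scaled with scran 1.30.0 size factors (R 4.3.3, quickCluster minimum size 100), reduced to 30 components of 2000 variable genes and clustered over 15 neighbours at Leiden resolution 1 (scanpy 1.11.5, leidenalg 0.10.2, igraph 0.11.9, scikit-learn 1.9.0, numpy 2.4.6, scipy 1.17.1, pandas 2.3.3, Python 3.11.15), with figures from matplotlib 3.10.9. No batch correction was made.

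Clusters were named from the mean of the 8 best markers of a class, with at least 3 markers detected, own markers at least as many as those of any other class in the 10 leading genes, and a margin of 0.05 over the next class. The names are rebuilt, so that they can differ from those of the study. Neutrophil stages were called from the relative level of promyelocyte, immature, mature and dividing lists, with 0.5 as the limit. Called doublets were kept: the automatic threshold of Scrublet marked 377 wild-type and 0 SCD cells, which did not work for the latter.

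UMIs were summed per class and library. Shares have Clopper-Pearson intervals, sums Poisson intervals and ratios of sums conditional binomial intervals, and ratios of single genes were taken on the log2(CPM + 5) scale, which understates differences of low genes. A gene counted as expressed with 50 CPM and 20 UMIs in 1 library and as different past 1.5-fold. A member that passes only through the library where it is higher had to differ, so counts over expressed members are descriptions. Named were the 5 members with the most UMIs, the 8 with the widest range over classes in wild-type, the 3 highest and 3 lowest ratios of each class, the paralogue pairs and 10 members with known roles, and some that met these rules are not reported here. Other lists held ribosome biogenesis genes, other oligopyrimidine-tract transcripts (Npm1 is in both), mitochondrial ribosomal proteins and regulators. Members and lists were chosen with earlier results of these data known. The interval code was tested on simulated counts. Start windows are those of RefSeq.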

Additional observations from a re-analysis of the deposited data

Results flagged for a closer look

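The share of UMIs in ribosomal protein genes was higher in SCD than in wild-type in some groups of cells and lower in others, with 1 library on each side, and these differences between groups were not tested. Among the classes, the ratio of SCD over wild-type was 1.16 in monocytes, 1.11 in conventional DCs, 1.10 in neutrophils, 1.09 in red pulp macrophages and 1.04 in pDCs, whereas it was 0.960 in erythroid cells. Under some alternatives the direction turned in neutrophils (0.848 by the mean of each cell's share and 0.689 in cells of 2000 to 8000 UMIs), pDCs (0.955 and 0.989), red pulp macrophages (0.999) and erythroid cells (up to 1.80). Along the neutrophil stages it was 1.06 in promyelocytes (0.980 by the mean of each cell's share), 1.13 in dividing, 1.09 in immature and 1.12 in intermediate cells, whereas it was 0.860 in mature cells. The mature value lay on the other side of 1, at 1.08, in the wild-type mix of sub-clusters.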

How the results depend on the processing

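Only monocytes and conventional DCs kept a share ratio of SCD over wild-type above 1 under every alternative run on the whole class. Their values ran from 1.09 to 1.1995 and from 1.04 to 1.25. Their single clusters with at least 20 cells in both libraries went as low as 0.999 and 0.895. In each of the other classes the direction turned under at least 1 alternative, and the cause was not tested. With cells of 30% or more ribosomal protein UMIs left out, the ratio was 0.698 in all kept cells, 1.05 in neutrophils, 1.15 in monocytes, 1.06 in conventional DCs, 1.02 in pDCs and 1.46 in erythroid cells. At least 1000 genes per cell gave 0.691 in all kept cells, 1.15 in neutrophils, 1.10 in conventional DCs, 1.196 in red pulp macrophages and 0.903 in erythroid cells. Cells of 2000 to 8000 UMIs gave 0.574 in all kept cells, 0.689 in neutrophils, 1.14 in monocytes, 1.25 in conventional DCs, 1.15 in pDCs, 1.18 in red pulp macrophages and 1.12 in erythroid cells. Without an upper limit on genes it was 0.884 in all cells, 1.05 in neutrophils, 1.17 in monocytes, 1.13 in conventional DCs, 1.04 in pDCs, 0.999 in red pulp macrophages and 1.80 in erythroid cells. Without the mitochondrial limit it was 0.719 in all cells, 1.11 in neutrophils, 1.16 in monocytes, 1.11 in conventional DCs, 1.14 in red pulp macrophages and 1.02 in erythroid cells. The mean of each cell's share gave 0.786 in all kept cells, 0.848 in neutrophils, 1.1995 in monocytes, 1.18 in conventional DCs, 1.03 in pDCs, 1.10 in red pulp macrophages and 0.988 in erythroid cells. With nuclear genes as the denominator it was 0.716 in all kept cells, 1.11 in neutrophils, 1.16 in monocytes and 0.954 in erythroid cells. Leiden resolution 2 gave 1.11 in neutrophils, 1.15 in monocytes, 1.12 in conventional DCs and 0.954 in erythroid cells. Total count normalization before clustering gave 1.14 in monocytes, 1.10 in conventional DCs, 0.989 in pDCs, 1.02 in red pulp macrophages and 1.01 in erythroid cells. Members among the clustering genes gave 1.11 in conventional DCs, 0.955 in pDCs, 1.15 in red pulp macrophages and 0.964 in erythroid cells. The share of mature over immature neutrophils became 1.46 in wild-type and 1.16 in SCD without the stage-list genes, and 1.21 and 0.864 in 4 ranges of the stage lists.

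4 alternatives, single clusters among them, were chosen after seeing the data. Leaving out the 10% of cells with the highest doublet score gave 0.718 in all kept cells, 1.12 in neutrophils, 1.14 in conventional DCs, 1.01 in pDCs, 1.15 in red pulp macrophages and 0.980 in erythroid cells. Without the neutrophil marker genes in the denominator the ratio was 0.907 in all kept cells, 1.17 in monocytes, 1.13 in conventional DCs, 1.04 in pDCs, 1.19 in red pulp macrophages and 0.993 in erythroid cells. The wild-type mix of clusters and neutrophil sub-clusters gave 1.05 in all kept cells, 1.09 in neutrophils, 1.09 in monocytes, 1.04 in conventional DCs, 1.03 in pDCs and 0.942 in erythroid cells.

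Median-of-ratios scaling moved the median log2 ratio of the members to 0.66 in neutrophils, 0.29 in conventional DCs, 0.49 in red pulp macrophages and -0.23 in erythroid cells. It gave 45 instead of 22 members higher in neutrophils, 15 instead of 6 in monocytes and 30 instead of 5 in red pulp macrophages. Rpl7l1 no longer passed in red pulp macrophages with 20 CPM added. Single clusters of monocytes had 0 to 1 members higher and 0 to 3 lower (2.14% to 7.01% and 4.07% to 8.23% of all genes). Of erythroid cells, the Klf1 cluster had none higher and 1 lower (7.98% and 4.9%) and the globin-led one 35 of 80 higher and none lower (58% and 6.11%). No paired analysis was possible because there was 1 sample per genotype. The removal of called doublets was not run, since the caller marked no SCD cell. The number of cells limits the wild-type promyelocytes (9) and B cells (20), and 37 and 26 UMIs limit Rpl7l1 in red pulp macrophages.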

Other observations

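Dividing cells differed from the other cells of their class in opposite ways. The split was not made within clusters or stages, so division and cell subtype cannot be told apart in these values. Dividing cells were called in cells thinned to 1000 UMIs by at least 2 UMIs of the dividing list without Hmgb2, Tubb5 and Stmn1, a definition chosen after seeing the data. In erythroid cells the dividing ones had a ribosomal protein share of 31.4% against 25.4% in the others in wild-type, and of 28.6% against 23.6% in SCD. In neutrophils they had 5.67% against 4.57% and 7.64% against 4.49%. The stage called dividing above had 5.17% and 5.83%, and promyelocytes 20.5% and 21.7%. How many promyelocytes were among the cells called here was not counted. In conventional DCs, in contrast, dividing cells had 19.4% against 21.4% and 18.9% against 24.2%, and in monocytes 17.6% against 17.99% and 19.4% against 21.5%. The dividing part of the monocytes was 3.13% in wild-type and 24.4% in SCD.

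The cells with over 5000 detected genes, which were left out of all comparisons, numbered 517 in wild-type and 1436 in SCD. Their ribosomal protein share was 29.1% and 26.6%, above that of the kept cells of either library. They held 33166964 and 84078864 UMIs, at medians of 62789 and 49736.5 UMIs per cell.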
